A study of Mus musculus with 11 samples.

Results

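The steady-state transcriptome of WT mouse embryonic stem cells (ESCs) was described from 3 libraries of polyadenylated RNA, which are all of the samples labelled as WT ESCs and polyA RNA among the 11 samples of the series. The series as a whole compares WT cells with cells that lack the dioxygenases Tet1, Tet2 and Tet3. For the WT cells used here the labels give no deletion, transgene or added compound. They were grown on gelatin in serum medium with leukemia inhibitory factor (LIF). The sources used here name no feeder layer and give neither the ESC line nor its strain, sex or passage. RNA was selected by its poly(A) tail and sequenced from stranded libraries. No other group enters the values below, and the replicates are numbered as in the sample titles. The labels do not say that they came from separate cultures, so the spread between them may be technical.

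ESCs derive from the inner cell mass of the blastocyst and can give rise to all tissues of the embryo. Their state rests on a small circuit of transcription factors around Pou5f1 (Oct4), Sox2 and Nanog, held in the naive condition by LIF signalling through Stat3. Polycomb complexes keep many developmental genes off in these cells, and these genes are switched on when the cells differentiate. The measurements below ask how the polyadenylated RNA of such cells is divided between housekeeping functions, the regulators of pluripotency and chromatin, and the genes of later lineages.

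The deposited unit is TPM, a measure of transcript abundance in which read counts are divided by gene length and scaled to a common total per library, so levels can be compared between genes. Unless stated otherwise, a value is the mean of the 3 libraries with its SD (n = 3). The depth recovered from the files was 72653715, 73405817 and 82144990 reads in replicates 1, 2 and 3. A count of 3 reads, taken as the limit that a count of 0 allows, corresponds to between 0.0725 and 0.0831 TPM for a gene of 1000 bases, for counting error only. Across genes, the log2 TPM of any 2 libraries correlated at Pearson's r of at least 0.992, given as a description because genes are not replicates. Reads per gene differed between libraries by more than sampling. Their chi-square averaged between 4.13 and 11.1 per gene for the 3 pairs, where sampling alone gives 1. It was between 1.52 and 1.71 for the genes with the fewest reads and between 44.4 and 188 for those with the most. This measure cannot tell separate cultures from technical repeats.

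More genes were expressed than silent. In all, 12274 of 23284 listed genes (52.7%) exceeded 1 TPM, the limit for an expressed gene in the study's methods, and 12122 did so in every library. The median of the genes above 1 TPM by their mean was 20.3 TPM, with quartiles at 6.35 and 55.98 TPM. Another 6449 genes had a mean above 0 and up to 1 TPM, and 4561 were listed at 0 in every library. The RNA was unevenly divided between the expressed genes. The 130 genes above 1000 TPM held 36.4% ± 0.263 of all TPM, and the 1574 genes from 100 to 1000 TPM held 37.9% ± 0.0812. The largest bin, 6455 genes from 10 to 100 TPM, held 23.8% ± 0.298. The 100 most abundant genes alone held 32.8%, 32.6% and 32.99% of TPM in the 3 libraries. The abundant genes were also short. The median length used by the authors was 866 bases above 1000 TPM and 2887 bases from 10 to 100 TPM, and the same number of top genes ranked by reads took 17.9% ± 0.376 of reads.

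The most abundant transcript was Eef1a1, which encodes the elongation factor that brings aminoacyl-tRNA to the ribosome (chromosome 9, 78326256 to 78329531, minus strand, in NCBIM37, the build named mm9 in the labels). It was at 11809.6, 11613 and 11877 TPM in replicates 1, 2 and 3. Rplp1, a protein of the ribosomal stalk, followed at 9994, 9986 and 10446 TPM. The third was Dppa5a, an RNA-binding protein known from pluripotent cells and the germ line (chromosome 9, 78214859 to 78215984, minus strand), at 8139, 8511 and 8229 TPM. The libraries of Dppa5a did not overlap with those of Eef1a1 or Rplp1, so the order of the first 3 genes was the same in each library. It was the only member of the ESC lists among the 25 most abundant genes, of which 15 encode cytosolic ribosomal proteins. The others serve general functions. Ptma, a nuclear prothymosin, was at 6843 ± 253 TPM, Hsp90ab1, a constitutive HSP90 chaperone, at 5135 ± 106 TPM, Tpt1, a translation-associated protein, at 4651 ± 104 TPM, and Ftl1, the ferritin light chain, at 4539 ± 42.6 TPM. Ppia (cyclophilin A) was at 4479 ± 54.7 TPM, the nucleolar chaperone Npm1 at 4187 ± 166 TPM, and the glycolytic enzymes Gapdh and Pkm2 at 4133 ± 75.1 and 4064 ± 41.3 TPM. Below the first 3 genes, neighbours in rank often lay within their spread, as did Rps2 at 5110.5 ± 163 TPM and Rpl13 at 5103 ± 144 TPM.

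**Figure D1:**
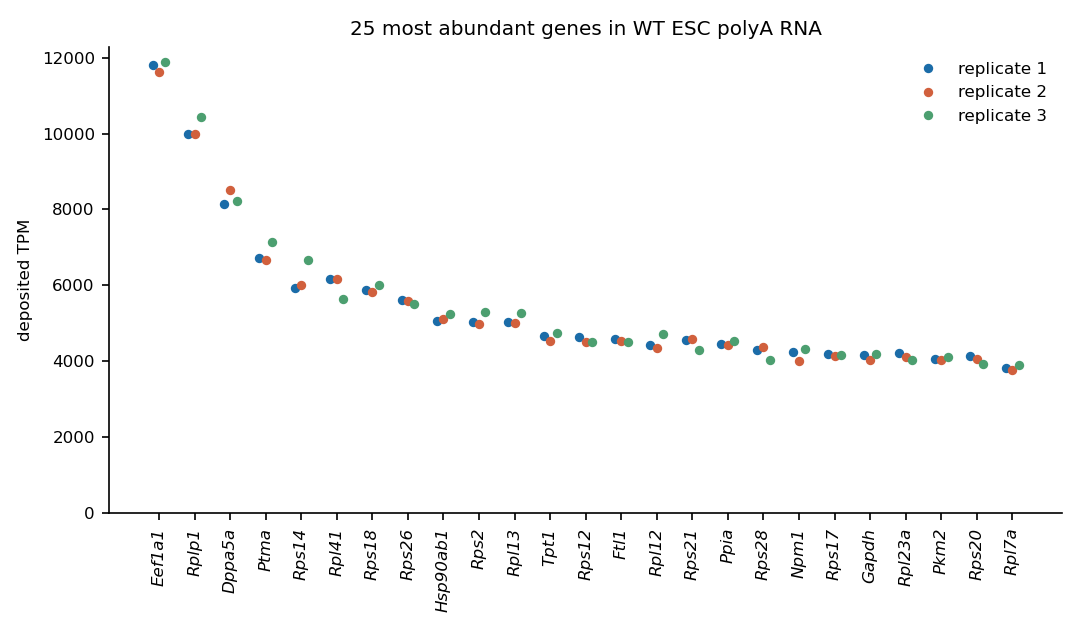
Deposited TPM (vertical axis, from 0) of the 25 genes with the highest mean, with a point for each of the 3 WT polyA libraries. Eef1a1 lies between 11613 and 11877 TPM and Dppa5a between 8139 and 8511 TPM, and past the first 4 genes the levels decline gradually.

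Grouped by function, the machinery of translation held the largest share of the transcriptome. The 79 cytosolic ribosomal protein genes summed to 23.1% ± 0.125 of TPM, and 78 of them were above 1 TPM, beside 52.7% of all listed genes. Their messages are short, with a median of 703 bases, and they took 8.48% ± 0.156 of recovered reads. Initiation and elongation factors added 3.67% ± 0.0446 of TPM, led after Eef1a1 by Tpt1 and the RNA helicase Eif4a1 (2622 ± 81.8 TPM). Nuclear-encoded oxidative phosphorylation genes held 3.04% ± 0.00704, with the cytochrome oxidase subunit Cox7c at 2485 ± 48.96 TPM and the ATP synthase subunit Atp5b at 2087 ± 24.9 TPM. Glycolysis, with 20 genes, held 1.5004% ± 0.01303. Chaperones and the chaperonin held 3.01% ± 0.0471, and the proteasome 1.08% ± 0.0183. Splicing factors and hnRNP proteins were at 2.05% ± 0.0108, and the DNA replication genes, headed by the sliding clamp Pcna (583 ± 9.94 TPM), at 0.704% ± 0.00454. Chaperones and oxidative phosphorylation genes lay within the spread of each other, and the other differences between these classes exceeded the SD of the libraries.

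Receptor families of specialised sensory cells lay at the other end. Of 1123 olfactory receptor genes, 2 (0.178%) were above 1 TPM, beside 52.7% of all listed genes, and 1016 were at 0 in every library. Olfr985 was at 9.38, 9.44 and 8.59997 TPM and the pseudogene Olfr1372-ps1 at 1.19, 1.23 and 1.15 TPM, with the first well above the rest of the family. None of 339 vomeronasal receptor genes passed 1 TPM, the highest being Vmn1r53 at 0.839, 1.05 and 0.883 TPM. Of the 104 keratin and keratin-associated genes, 9 were above 1 TPM, led by Krt42 at 60.7 ± 1.15 TPM and Krt17 at 56.5 ± 0.873 TPM. In contrast, 321 of 367 genes named Zfp were above 1 TPM, but at a low median of 8.53 TPM. The highest was Zfp57, which protects imprints, at 435 ± 25.2 TPM.

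**Figure D2:**
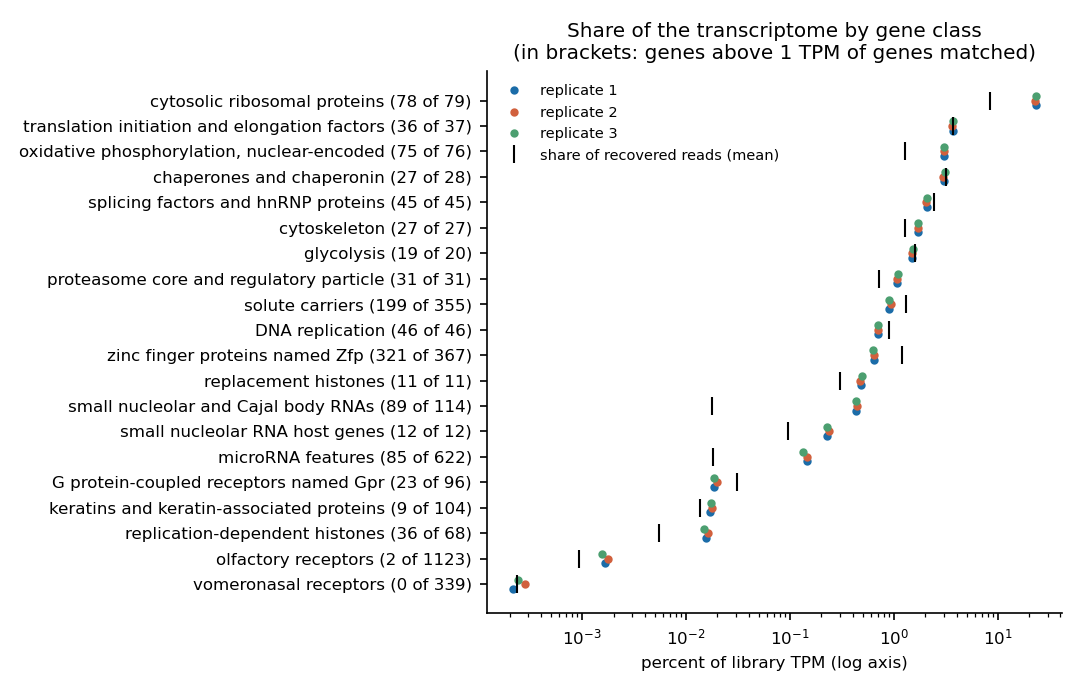
Percent of library TPM (horizontal log axis) held by each of 20 gene classes, with coloured points for the 3 libraries and a black tick for the mean share of recovered reads. Cytosolic ribosomal proteins hold 23.1% of TPM but 8.48% of reads, and the 3 libraries of a class nearly coincide.

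Subunits of a complex mostly differed by a few-fold, apart from a gene of eIF3 listed at 0. The 8 genes of the cytosolic chaperonin, which folds actin and tubulin, ranged from 598 TPM (Tcp1) to 907 TPM (Cct6a), a 1.52-fold range. The 6 genes of the MCM replicative helicase ranged from 175 TPM (Mcm4) to 373 TPM (Mcm5), or 2.13-fold. The alpha ring of the 20S proteasome spanned 1.84-fold and the beta ring 4.64-fold. The beta ring ranged from the catalytic subunit gene Psmb5 at 171 ± 2.22 TPM to Psmb4 at 791 ± 14.7 TPM. The share of the transcript's words that also lie elsewhere in NCBIM37, measured as described below, was 60.5% for Psmb5 and 0.794% for Psmb4. The level of Psmb5, and with it the range of the beta ring, is uncertain to that extent. In the initiation complex eIF3, 13 genes ranged from Eif3j, listed at 0, to Eif3e at 494 ± 2.796 TPM. These 5 complexes were chosen after their values were seen.

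The transcription factors of pluripotency were all expressed, over a wide range of levels. All 32 factors of the core and naive list were above 1 TPM, beside 52.7% of all listed genes, with a median of 93.6 TPM. The gene lists were written with earlier results of these data known, so such shares may partly reflect the choice of members. Pou5f1, the POU factor at the centre of the circuit (chromosome 17, 35642982 to 35647721, plus strand), led the list at 1884, 1856 and 1948 TPM in replicates 1 to 3. Its partner Sox2 was at 427, 419 and 420.4 TPM, and Utf1, a chromatin-associated factor of undifferentiated cells, at 606, 607 and 594 TPM. Nanog was at 29.5, 31.4 and 31.7 TPM, far below its 2 partners in every library. In bulk RNA, fewer cells that express a gene and less RNA per cell cannot be told apart. Among factors of the naive state, Klf5 was at 255 ± 9.14, Esrrb at 244 ± 9.35, Zfp42 (Rex1) at 169 ± 5.04, Klf2 at 152 ± 3.41 and Klf4 at 80.9 ± 1.06 TPM. The lowest member was Prdm14, which represses epiblast genes and DNA methyltransferases, at 15.2 ± 0.973 TPM. Trp53, the p53 tumour suppressor, was at 321 ± 9.28 TPM.

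ESC-associated genes that are not sequence-specific factors were likewise all expressed (34 of 34, median 158 TPM), beside 52.7% of all listed genes. After Dppa5a came Tdgf1 (Cripto), the Nodal co-receptor, at 1971 ± 84.1 TPM, and Trim28, the co-repressor of KRAB zinc finger proteins, at 1106 ± 5.77 TPM. The lowest was Lifr, the subunit of the receptor through which LIF acts, at 17.9 ± 1.01 TPM. Genes of the primed epiblast, the later pluripotent state, were less fully expressed, with 13 of 17 above 1 TPM. Dnmt3b was at 166 ± 3.55 and the claudin Cldn6 at 96.97 ± 6.02 TPM, and the Wnt effector Lef1 was at 10.7 ± 0.359 TPM. Brachyury (T) was at 0.122, 0.175 and 0.189 TPM in replicates 1 to 3 and Cer1, a secreted Nodal inhibitor, was listed at 0.

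General factors for growth and cell cycle were broadly present, with 64 of 65 above 1 TPM. The E2F partner Tfdp1 was at 428 ± 3.1999 TPM, Atf4 at 410.0 ± 2.47 TPM, Ctnnb1 (beta-catenin) at 398 ± 3.57 TPM and E2f4 at 281 ± 4.504 TPM. The exception was the orphan receptor Nr2f2, at 0.0341, 0.0622 and 0.0447 TPM. Over all regulator lists, 350 of 366 different genes (95.6%) were above 1 TPM, beside 52.7% of all listed genes. Above 10 TPM were 315 (86.1%), beside 35.0% of all listed genes.

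Chromatin regulators were expressed with few gaps, where 52.7% of all listed genes were above 1 TPM. All 11 genes of Polycomb repressive complex 2, which methylates H3K27, were above 1 TPM. Its core members Eed (307 ± 9.75 TPM), Ezh2 (180.1 ± 0.813 TPM), Rbbp4 (229 ± 7.77 TPM) and Suz12 (123 ± 2.28 TPM) lay within 2.503-fold of each other, the cofactor Jarid2 was at 270.1 ± 11.1 TPM and Phf19 was the lowest at 7.93 ± 0.198 TPM. Of 20 genes of PRC1, which ubiquitylates H2A, 18 were above 1 TPM, led by Phc1 at 289 ± 16.2 TPM. All 28 NuRD and CHD genes and all 33 Mediator genes were above 1 TPM, at medians of 79.4 and 29.5 TPM. Chd4, the ATPase of NuRD, was at 259.8 ± 11.1 TPM, and Med12l at 1.71 ± 0.1401 TPM was the lowest Mediator gene. For histone acetylation the counts were 28 of 30, led by the histone acetyltransferase Hat1 (607 ± 12.2 TPM), and for histone methylation 45 of 46, led after Trim28 by the arginine methyltransferase Prmt1 (624 ± 24.2 TPM). In the cohesin, condensin and CTCF list 22 of 24 passed, with the cohesin ring subunit Rad21 at 253 ± 1.41 TPM and the insulator protein Ctcf at 133 ± 2.12 TPM. Several of the members that did not pass are known from other tissues. They include Brdt, a testis bromodomain protein (0.231, 0.241 and 0.188 TPM), Ctcfl, the testis paralogue of Ctcf (0.0947, 0.0513 and 0.0451 TPM), and Kdm4d, a histone H3 lysine demethylase (0.0832, 0.0724 and 0.0454 TPM).

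Sets of paralogues differed in how far the highest member exceeded the rest. In 19 of 46 sets the highest member held over 90% of the summed TPM, in 24 it held from 50 to 90%, and in 3 less. In a set of 2 the higher gene holds at least 50% by construction, and among the 27 larger sets the first 2 counts were 5 and 19. The sets of Rps27 and Eno1 hold genes with uncertain counts, described below. Other sets also hold genes with much shared sequence. The share of 50-base words that also lie elsewhere in NCBIM37 was 91.2% for Rpl3, 84.7% for Rps4x, 80.3% for Eif4a1 and 76.7% for Hdac1. The order within such sets, and the counts of sets, are uncertain to that extent. In the BAF remodeller, which moves nucleosomes, the ATPase gene Smarca4 was at 90.7 ± 3.99 TPM and its alternative Smarca2 at 0.362 ± 0.0473 TPM. Of the DNA-binding subunits, Arid1a was at 88.5 ± 7.404 and Arid1b at 6.302 ± 0.369 TPM, and of the scaffold subunits Smarcc1 was at 113 ± 3.13 and Smarcc2 at 15.4 ± 0.907 TPM. Actl6a was at 226 ± 9.35 TPM, whereas its neuronal paralogue Actl6b was at 0.159 ± 0.0363 TPM. In each of these pairs the libraries did not overlap.

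For DNA methylation, Dnmt3l, the cofactor without catalytic activity, was at 635 ± 8.07 TPM, above the methyltransferases Dnmt3b at 166 ± 3.55 and Dnmt3a at 31.4 ± 0.499 TPM. Of the dioxygenases that oxidise 5-methylcytosine, Tet1 was at 179, 184 and 149.6 TPM, Tet2 at 83.5, 84.04 and 72.9 TPM and Tet3 at 2.67, 2.96 and 2.31 TPM in replicates 1 to 3, in the same order in each library and with replicate 3 the lowest for all 3 genes. Ezh2 exceeded Ezh1, at 15.8 ± 0.328 TPM. Cbx7 at 180.2 ± 5.55 TPM held 79.3% of the CBX set of PRC1, above Cbx6 (31.7 ± 0.454 TPM), Cbx2 (13.9 ± 0.639 TPM) and Cbx8 (0.97004 ± 0.225 TPM). The PCGF set was more even, from Pcgf6 at 80.3 ± 0.833 TPM to Bmi1 at 5.33 ± 0.355 TPM.

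Cell cycle and metabolic genes showed similar choices. Ccne1 was at 331 ± 2.89 TPM against 20.5 ± 0.447 TPM for Ccne2, Ccna2 at 225 ± 4.07 TPM against 0.491 ± 0.0944 TPM for Ccna1, and Ccnd3 at 309.8 ± 1.32 TPM against 68.9 ± 1.14 for Ccnd1 and 2.78 ± 0.129 for Ccnd2. Ldha, Hk2 and Aldoa were the leading isoforms for lactate dehydrogenase (93.8% of its set), hexokinase (89.3%) and aldolase (98.4%). Glucose transporters were shared between Slc2a3 at 743 ± 34.7 TPM and Slc2a1 at 680.2 ± 38.04 TPM. Cdh1 (E-cadherin) was at 319 ± 14.7 TPM and Cdh2 (N-cadherin) at 1.49 ± 0.222 TPM. Mycn at 115 ± 1.68 TPM was above Myc at 40.1 ± 0.7604 TPM, and Lin28a at 215 ± 3.95 TPM above Lin28b at 26.01 ± 0.164 TPM. The cohesin STAG set had no dominant member, with Stag3, known from meiosis, at 51.4 ± 4.89 TPM, Stag1 at 39.3 ± 1.42 TPM and Stag2 at 32.3 ± 0.9198 TPM.

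Lineage genes were mostly low. Of 237 different genes in 9 lineage lists, 68 (28.7%) were above 1 TPM, against 52.7% of all listed genes, and 21 were above 10 TPM. The count depends on the limit, and 31 were above 5 TPM. The smallest share of expressed genes was that of the Hox genes, which set position along the body axis. Of these, 2 of 39 were above 1 TPM, among them Hoxd13 at 0.982, 1.06 and 1.18 TPM, and the median was 0.0876 TPM. Of the neural list 8 of 34 passed, of mesoderm, heart and muscle 8 of 29, of endoderm, liver and pancreas 6 of 29, and of blood and endothelium 9 of 29. For epidermis and other ectoderm the count was 2 of 15. Members at or near 0 included the neural crest factor Pax3 at 0.00239 TPM, the muscle factor Myf5 at 0.00387 TPM, and the adult globin Hbb-b1, listed at 0 in every library.

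A few lineage genes stood far above their lists. Tcf15, a bHLH factor of paraxial mesoderm, was at 150.4, 151 and 149.5 TPM in replicates 1 to 3, and the neuronal tubulin Tubb3 at 117, 116 and 115 TPM. The apolipoprotein gene Apoa2 was at 45.2, 51.1 and 47.6 TPM, the bone morphogenetic protein gene Bmp4 at 71.9, 74.7 and 74.6 TPM and the endothelial adhesion gene Pecam1 at 35.6, 37.9 and 36.7 TPM. In each case the 3 libraries lay close together. The neural factor Sox1 was at 13.7, 13.9 and 13.6 TPM, while Pax6 was at 1.14, 1.27 and 1.33 TPM. Among germ cell genes, 14 of 32 (43.8%) were above 1 TPM, beside 52.7% of all listed genes. Those above 10 TPM were Tex19.1 at 58.8 ± 2.67, the recombinase Dmc1 at 25.4 ± 0.194, the piRNA pathway gene Piwil2 at 24.99 ± 0.776, the RNA helicase Ddx4 (Vasa) at 21.5 ± 0.516, Tex14 at 20.3 ± 0.465 and the synaptonemal complex gene Sycp3 at 11.3 ± 1.22 TPM. The melanocyte antigen gene Mlana was at 10.5 ± 0.936 TPM.

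Extraembryonic lists had larger shares of expressed genes. For extraembryonic endoderm 13 of 18 genes passed, but the high members were basement membrane genes, Lamc1 at 177 ± 15.1, Sparc at 164 ± 10.7, Lamb1 at 56.3 ± 4.595, Lama1 at 39.9 ± 4.82 and Col4a1 at 16.4 ± 1.24 TPM. The factors that define this lineage were low, with Gata6 at 1.81, 1.78 and 1.73 TPM, Gata4 at 1.49, 1.56 and 1.45 TPM and Sox17 at 0.425, 0.668 and 0.278 TPM. For trophectoderm 12 of 22 passed (54.5%), near the 52.7% of all listed genes. Tfap2c was at 24.8 ± 0.575 TPM and the simple epithelial keratins Krt8 and Krt18 were at 22.1 ± 1.06 and 14.5 ± 0.719 TPM, while Cdx2, the factor that specifies the lineage, was at 0.194, 0.141 and 0.2705 TPM.

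**Figure D3:**
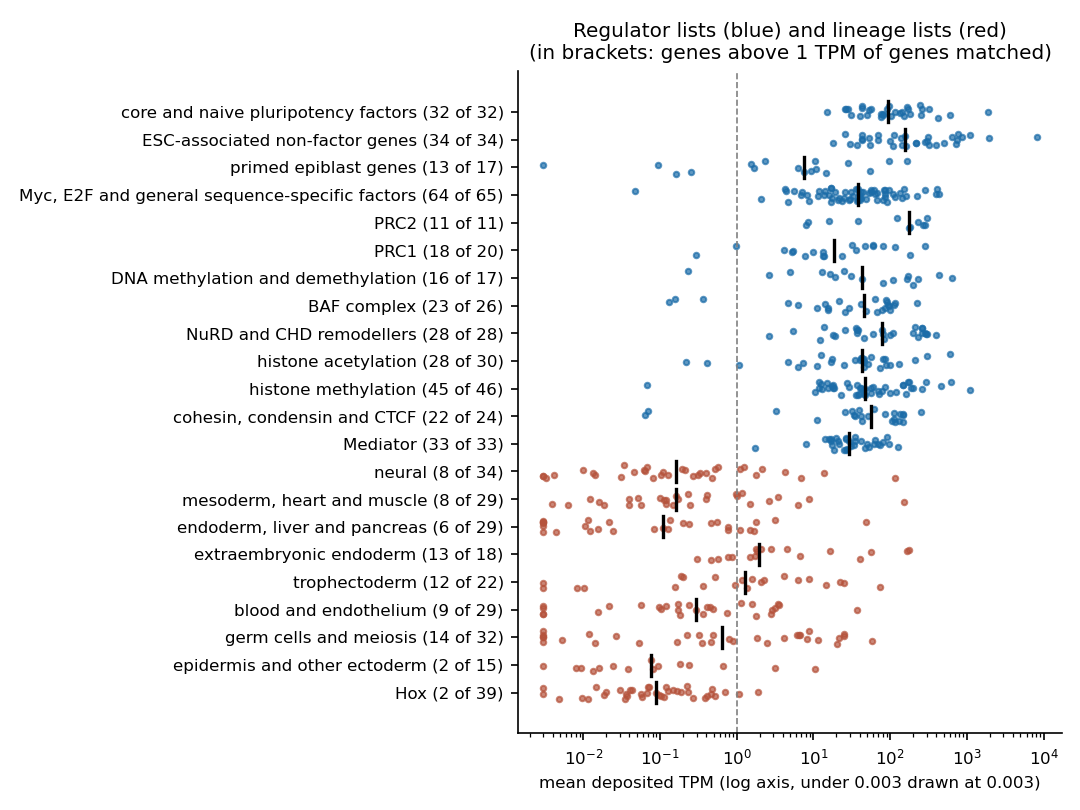
Mean deposited TPM (horizontal log axis) of each gene in 13 regulator lists (blue) and 9 lineage lists (red), with a black bar at each list's median and a dashed line at 1 TPM. Medians of the regulator lists run from 7.44 to 174 TPM, and those of the lineage lists from 0.0763 to 1.95 TPM.

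The labelled cell type was compared with defining markers. All 8 ESC markers (Pou5f1, Sox2, Nanog, Zfp42, Esrrb, Dppa5a, Tdgf1 and Utf1) were above 10 TPM, and their sum ranged from 13385 to 13875 TPM between libraries. The 7 fibroblast markers summed to between 5.87 and 8.94 TPM, with 3 above 1 TPM and none at 0 in all 3 libraries. The collagen gene Col1a1 was at 1.51, 2.13 and 1.56 TPM, and the matrix proteoglycan genes Dcn and Lum were at 0, 0.396 and 0.0348 and 0, 0.106 and 0 TPM. In the broader fibroblast list, Fn1 (fibronectin) at 128 ± 16.2, Vim (vimentin) at 71.03 ± 0.746 and Tagln at 18.5 ± 0.821 TPM exceeded 10 TPM. The 5 markers of extraembryonic endoderm summed to between 6.82 and 7.63 TPM, with 3 above 1 TPM. The 3 of mesoderm summed to between 0.584 and 0.722 TPM and the 3 of trophectoderm to between 0.638 and 0.794 TPM, with none above 1 TPM. The 3 neural markers summed to between 130.4 and 132 TPM, and all 3 were above 1 TPM. Of these, 2 were above 10 TPM, Tubb3 at 116 TPM, which held most of the sum, and Sox1 at 13.8 TPM. The part of other cells in the lineage genes above 10 TPM was not tested.

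Genes of the state that resembles the cleavage-stage embryo, which small numbers of cultured ESCs enter, were expressed about as often as all genes. Of 20 such genes 10 (50%) were above 1 TPM, beside 52.7% of all listed genes. Their median was 0.992 TPM, 1 was above 10 TPM and 2 were at 0 in every library. Eif1a, an initiation factor gene, was at 217 ± 4.63 TPM and held 89.9% of the list's TPM. The genes Zscan4c, Zscan4d, Zscan4a and Zscan4f, near-identical copies whose reads are uncertain, were at 3.29, 3.14, 3.05 and 2.83 TPM, with 79.2% of the 50-base words of the Zscan4c transcript found elsewhere in NCBIM37. On the sex chromosomes, Xist, the RNA of the inactive X chromosome, was at 0.0896, 0.104 and 0.0863 TPM, and its antisense transcript Tsix at 5.28, 6.62 and 5.69 TPM. The Y-linked helicase gene Ddx3y was at 2.02, 1.797 and 2.01 TPM, Eif2s3y at 0.799, 0.857 and 1.12 TPM, Uty at 0.0424, 0.0421 and 0.0324 TPM, and Sry, the testis-determining factor, was listed at 0. All of these lay near or below the limit except Tsix.

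Inducible programmes gave a baseline, with list counts to be read beside the 52.7% of all listed genes above 1 TPM. Of immediate-early genes, which respond to serum within minutes, 20 of 25 were above 1 TPM, with the anti-apoptotic gene Mcl1 at 365 ± 2.39, Ier2 at 231 ± 2.701, Dusp1 at 67.1 ± 0.912 and Egr1 at 10.5 ± 0.195 TPM. All 23 genes of sterol synthesis and uptake passed, led by Sc4mol, a sterol demethylation enzyme, at 195 ± 3.92 TPM. Of the amino acid response genes, 21 of 23 passed, headed by the serine synthesis gene Psat1 (422 ± 3.59 TPM) and the asparagine synthetase gene Asns (420.0 ± 6.73 TPM), whereas the cystine transporter Slc7a11 was at 0.384 ± 0.0404 TPM. Of p53 targets 18 of 19 passed, with Bax at 467 ± 19.4, Mdm2 at 94.3 ± 1.81 and Cdkn1a (p21) at 69.9 ± 0.461 TPM. Of hypoxia targets 19 of 20 passed, and the exception, Car9, was at 0.862, 0.885 and 0.802 TPM.

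Histone genes fell into a low and a high class. Replication-dependent histone messages end in a conserved stem-loop rather than a poly(A) tail. The 68 genes of this class together held 157, 161 and 149 TPM in replicates 1 to 3, and the highest, Hist1h2bc, was at 24.6, 22.5 and 23.6 TPM. The 11 replacement histone genes, a class known for polyadenylated messages, held 4802, 4734 and 4884 TPM. H2afz was at 2045 ± 43.8, H3f3a at 938 ± 23.8 and H3f3b at 662 ± 11.5 TPM. Every one of these 11 genes was above the highest member of the first class. Replication-dependent histone genes had a median of 46.4% of their 50-base words elsewhere in NCBIM37, against 2.53% for replacement histones, so their counts are uncertain, and the part of shared sequence in the difference was not tested. The stem-loop was searched on the transcript's strand from 200 bases before to 100 bases after the annotated end, as GG, 2 bases, CTTTT, 1 base, AG, 2 bases and CC. It was found in 48 of 68 replication-dependent genes and in 0 of 11 replacement genes. Sites farther from the annotated end were not searched, so these counts hold for this window only. Among 20276 coding genes with an annotated end, 48 (0.237%) held it, of which 47 were replication-dependent histone genes and the other was Lactb. Genes of the class with a match had a median of 0.919 TPM and those without a match 1.503 TPM. The sites of the 2 most abundant matching genes and of Hist2h2aa2, listed at 0 and with 100% of its words elsewhere, are shown with 5 bases on either side, read from NCBIM37 on the minus strand, with the matched stretch in capitals, to show the letters that these genes share.
Hist1h4i, chr13:22132830-22132855: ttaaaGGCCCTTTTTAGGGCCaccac
Hist1h4k, chr13:21842014-21842039: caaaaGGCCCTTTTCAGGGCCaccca
Hist2h2aa2, chr3:96043702-96043727: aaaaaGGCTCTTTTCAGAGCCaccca

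Small RNA features were counted as well, although their mature products carry no poly(A) tail. Of 622 features named as microRNAs 85 (13.7%) were above 1 TPM, beside 52.7% of all listed genes. Of 114 small nucleolar and Cajal body RNAs 89 (78.1%) were. The first list, which also holds the longer host transcript Mir17hg at 109 ± 7.04 TPM, had 0.141% ± 0.00798 of TPM, and the second 0.436% ± 0.00726. For the short features, few reads give a high TPM. Mir290, for instance, was at 23.02, 17.9 and 18.1 TPM from 69, 54 and 62 reads. Mir290, matched to Mir290a in RefSeq, belongs to the cluster of microRNAs that mouse ESCs are known for, and the cluster genes were chosen after their values were seen. The hairpins of Mir291a, Mir291b, Mir292, Mir293, Mir294 and Mir295 were listed at 0 in all 3 libraries, as were those of Mir302a to Mir302d of the related cluster. These values describe hairpin features in long RNA and not mature microRNAs. Mature 3p sequences with a shared or nearly shared seed are shown from RefSeq (GRCm38.p6), with the seed (bases 2 to 8) in capitals. In miR-291a-3p, miR-294-3p, miR-295-3p, miR-302b-3p and miR-302d-3p the seed is AAGUGCU, and in miR-290a-3p it is AAGUGCC. Some other 3p arms of these clusters have other seeds, namely AAGUGCA in miR-291b-3p, GUGCCGC in miR-293-3p and AGUGCUU in miR-302c-3p. The 3p arms of Mir292 and Mir302a were not among the sequences used.
miR-290a-3p, chr7:3218674-3218697, plus strand: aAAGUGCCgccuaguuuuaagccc
miR-291a-3p, chr7:3218968-3218989, plus strand: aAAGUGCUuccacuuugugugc
miR-294-3p, chr7:3220691-3220712, plus strand: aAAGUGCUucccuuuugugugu
miR-295-3p, chr7:3220815-3220837, plus strand: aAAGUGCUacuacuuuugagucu
miR-302b-3p, chr3:127545275-127545297, plus strand: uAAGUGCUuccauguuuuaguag
miR-302d-3p, chr3:127545665-127545687, plus strand: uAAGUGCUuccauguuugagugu

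Expressed and silent genes differed in the base composition of their promoters. The CpG ratio, the number of CG dinucleotides over that expected from the C and G content, was computed in windows from 250 bases before to 50 bases after the start in RefSeq (GRCm38.p6), which matched 15701 of 23284 listed genes. The median was 0.78 (quartiles 0.60 and 0.92) for 8579 genes above 1 TPM in every library. It was 0.19 (quartiles 0.09 and 0.33) for 4826 genes at or below 0.1 TPM in every library. These 4826 genes include 904 olfactory receptor genes with a median of 0.106 and 289 vomeronasal receptor genes with a median of 0.115. The median rose through the abundance bins, from 0.15 at 0 TPM to 0.68 from 1 to 10 TPM and 0.88 above 1000 TPM. These are descriptions across genes, which are not replicates.

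The gene lists differed in the same measure. Median ratios were 0.97 for splicing factors, 0.90 for ribosomal proteins and 0.94 for PRC2. They were 0.66 for core and naive pluripotency factors and 0.55 for ESC-associated genes, below those 3 lists. Glycolysis genes were also lower, at 0.63. Olfactory receptors were at 0.11, and epidermal and other ectodermal genes at 0.19. Silence did not always go with a low ratio. The 8 Hox genes with a window and at most 0.1 TPM in every library had a median of 0.84, and the 11 such neural genes 0.77, close to the value of expressed genes. The whole Hox list, with 22 genes that have a window, was at 0.59, and the 8 genes are part of 17 Hox genes at that level. The 8 silent genes of endoderm, liver and pancreas were at 0.29 and the 7 silent germ cell genes at 0.14. To show the contrast, the 150 bases before the start are given for the gene nearest to the median of its list, for ribosomal proteins, pluripotency factors, Hox genes and olfactory receptors, with each CG in capitals.
Rpl14, chr9:120571367-120571516, plus strand: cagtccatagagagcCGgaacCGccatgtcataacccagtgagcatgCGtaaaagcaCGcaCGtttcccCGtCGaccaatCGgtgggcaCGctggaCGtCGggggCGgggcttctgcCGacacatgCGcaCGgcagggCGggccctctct
Tfcp2l1, chr1:118627795-118627944, plus strand: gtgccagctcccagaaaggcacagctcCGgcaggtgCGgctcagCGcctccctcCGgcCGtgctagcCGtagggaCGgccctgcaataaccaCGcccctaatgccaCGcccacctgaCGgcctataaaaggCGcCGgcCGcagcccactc
Hoxa10, chr6:52240855-52241004, minus strand: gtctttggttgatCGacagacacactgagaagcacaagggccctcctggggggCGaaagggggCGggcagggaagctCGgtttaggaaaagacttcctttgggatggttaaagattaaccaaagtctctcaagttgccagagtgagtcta
Olfr267, chr4:58785721-58785870, minus strand: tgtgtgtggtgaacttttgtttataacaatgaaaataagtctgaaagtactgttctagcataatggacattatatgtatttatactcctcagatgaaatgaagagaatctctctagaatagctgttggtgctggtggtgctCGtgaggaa
These stretches hold 16, 13, 4 and 1 CG dinucleotides, at mean levels of 2445, 95.5, 0.148 and 0.0183 TPM.

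**Figure D4:**
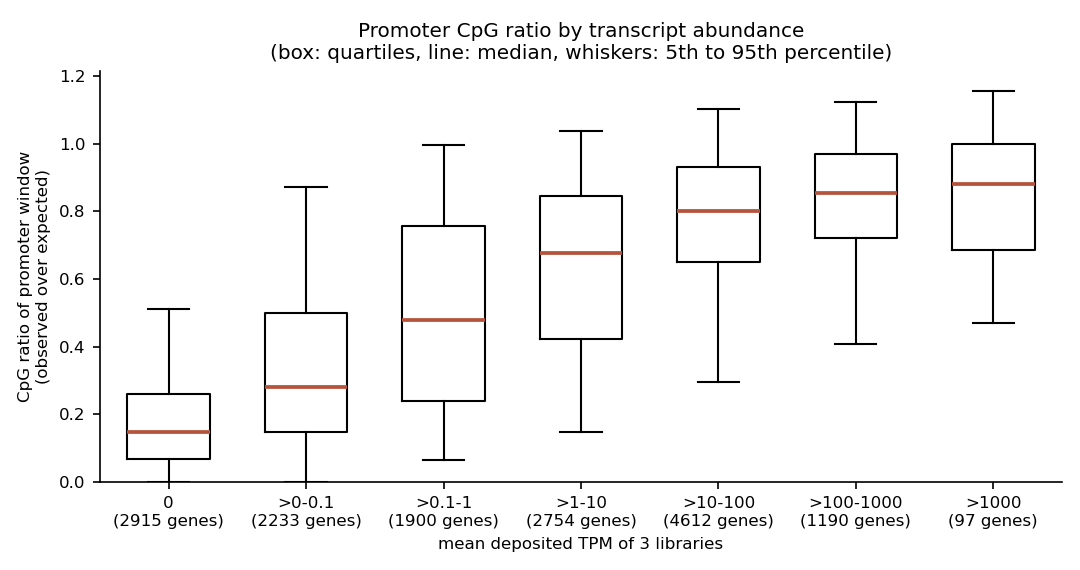
Promoter CpG ratio (vertical axis, observed over expected) of genes in 7 bins of mean deposited TPM, as boxes of the quartiles with the median and whiskers from the 5th to the 95th percentile. The median is 0.15 for genes listed at 0 and 0.88 above 1000 TPM.

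Several housekeeping genes were far below their lists. Rpl26 had no read in replicates 1 and 3 and 0, 0.0507 and 0 TPM in the 3 libraries, against a median of 2893 TPM for ribosomal protein genes. Rps27 was at 2.89, 3.92 and 4.12 TPM while its paralogue Rps27l was at 1499.9, 1516 and 1477 TPM. Eno1, the main enolase of glycolysis, was at 0.0312, 0.124 and 0.0272 TPM, below Eno3 at 54.2, 56.1 and 57.1 TPM, the isoform known from muscle. The thymine DNA glycosylase gene Tdg was at 0.198, 0.248 and 0.248 TPM, the splicing regulator gene Hnrnpa1 at 7.35, 7.91 and 6.33 TPM, and the initiation factor gene Eif3j and the respiratory chain gene Ndufs5 were listed at 0. These genes share sequence with other places in the genome. The share of each transcript's 50-base words that also lie elsewhere in NCBIM37 was 99.7% for Rps27, 83.2% for Eif3j, 82.9% for Hnrnpa1, 79.1% for Tdg, 72.4% for Eno1, 50% for Rpl26 and 49.8% for Ndufs5. Over coding genes, 14.6% of those with over 90% of words elsewhere were above 1 TPM, and 60.95% of those with up to 10%. Of the 7 genes, Rps27 had the highest share but not the lowest level, and other genes had both a high share and a high level. Ribosomal protein genes with over 90% of words elsewhere had a median of 3561 TPM (11 genes), and those with up to 10% 2074 TPM (6 genes). Eef1a1 itself stood at 73.2% and Gapdh at 85.6%. The part of shared sequence in the low values was not tested, and the levels of these 7 genes are uncertain.

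The libraries were close to each other for nearly all genes. Among 8159 genes with a mean of at least 10 TPM, the median SD of log2 TPM, after scaling each library by its median ratio, was 0.0416, and 95% of genes had an SD of at most 0.108. Counting error alone gives 0.0317 from 10 to 30 TPM, where the observed median was 0.0505, and 0.004903 at 1000 TPM and over, where it was 0.0349. Counting error was thus the smaller part of the spread for the more abundant genes. The gene of at least 100 TPM with the smallest SD was Xpo1, the nuclear export receptor, at 275, 277 and 272 TPM, followed by the deubiquitylase gene Usp5 at 125, 126 and 124 TPM and the respiratory complex III gene Uqcrc1 at 329, 329.9 and 325 TPM. The next were S100a11, Tfdp1, Csnk2b, Pold2, Srsf7, Ywhag and Chmp1a, all with an SD of at most 0.00394 on the log2 scale. For each of these 10 genes the SD was below that of counting error, for Xpo1 0.00047 against 0.00624, so 3 libraries cannot rank them.

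Wide spans were few. Of genes with at least 10 TPM, 19 of 8159 (0.233%) spanned over 1.5-fold, and 18 of these 19 were features of up to 200 bases. The count was 181 with a minimum of 1 TPM and 3 with a minimum of 50 TPM. Without replicate 2 it was 10, and without replicate 3 it was 9. Such short features make up 86 of the 8159 genes. The longer gene was Rpph1, the RNA component of ribonuclease P, at 12.95, 8.298 and 9.52 TPM from 152, 98 and 128 reads. The widest span was that of Snord111, a small nucleolar RNA inside Sf3b3, at 13.8, 6.88 and 29.1 TPM from 32, 16 and 77 reads, followed by Mir1898, inside Zfr, at 14.01, 20.9 and 7.86 TPM from 42, 63 and 27 reads. Gm12238, which overlaps G3bp1, was at 12.7, 15.1 and 28.7 TPM. Mir682 stood apart from these by its depth, at 298, 237 and 134 TPM from 1034, 828 and 533 reads, with replicate 1 the highest. Its span of 2.197-fold came with an SD of 0.58 on the log2 scale, where counting error gives 0.05301. The gene just inside the 1.5-fold line was Snord1c at 1.51-fold and the gene just outside was Mir703 at 1.496-fold. Across the 19 genes the lowest library was replicate 1 for 7, replicate 2 for 5 and replicate 3 for 7.

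Among longer genes a smaller but orderly difference set replicate 3 apart. Of genes over 8000 bases, 94.1% had their lowest value in replicate 3, against 16.7% of genes from 1000 to 2000 bases. The median log2 difference of replicate 3 from the mean of the other two was -0.14 over 8000 bases (272 genes), -0.05 from 4000 to 8000 bases and 0.03 from 1000 to 2000 bases. The genes over 1000 bases with the largest SD were all lowest in replicate 3 and were chosen after their values were seen. They include the cytoskeletal linker Dst at 34.8, 36.8 and 26.1 TPM, the ubiquitin ligase Cbl at 28.4, 28.5 and 20.6 TPM, and the atypical cadherin Fat1 at 48.8, 52.7 and 38.3 TPM. Tet1, with a long message of 14082 bases, followed the same order of libraries. The cause of this difference was not tested.

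**Figure D5:**
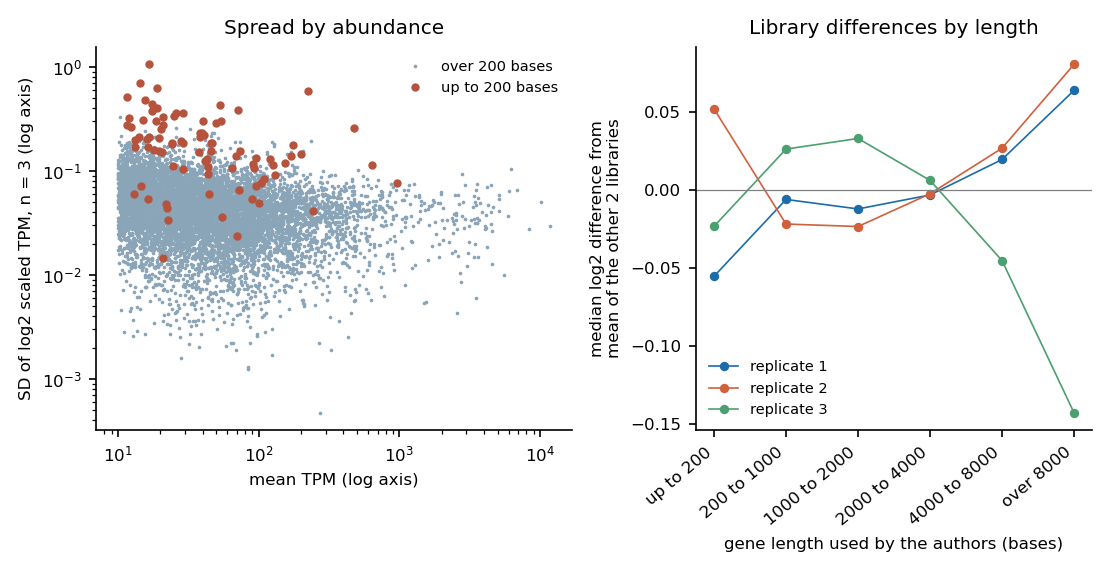
Left, SD of log2 scaled TPM over the 3 libraries (vertical log axis) against mean TPM (horizontal log axis) for 8159 genes of at least 10 TPM, with features of up to 200 bases in red, which lie above most other genes. Right, median log2 difference of each library from the mean of the other 2 by gene length, with replicate 3 at -0.14 over 8000 bases.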

How the data were processed

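Polyadenylated RNA of WT ESCs was measured in 3 libraries. The deposited values are TPM, which the authors made by counting aligned reads per gene with HTSeq and dividing by gene length and library total. The study's methods name STAR and a RefSeq transcriptome on mm9, and the submitters' processing notes name FastQC, Trimmomatic, Bowtie2, HTSeq and mm9. Versions, read handling at shared sequence and the strand setting are not given in the sources used here. The authors took genes above 1 TPM as expressed.

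The labels gave each library its group and replicate number, and all per-sample columns matched a sample. Values are means ± SD of the deposited TPM, with no test, since only 1 group was described. The members, gene lists and named genes were chosen with earlier results of these data known. Named genes were the 25 most abundant, up to 5 highest members and the lowest member of each list, lineage and marker genes above 10 TPM, all members of paralogue sets, the 20 genes of at least 10 TPM with the largest SD and the 10 of at least 100 TPM with the smallest SD. Other genes are named as chosen after their values were seen, and the printed sites, microRNAs and promoter windows were likewise chosen then. Some genes that this rule names are not reported here.

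Reads were recovered from the TPM steps, as the smallest whole-number counts and lengths that give the values of a gene in every library of the series, and all 19869 genes above 0 gave such a solution. For short features a true count can be a multiple of that given. The depth per library sets the floor of 3 reads, and intervals of counting cover counting error only. For the spread, each library was divided by its median ratio to the gene-wise geometric mean. Shared sequence was measured as the share of 50-base words of the longest coding transcript (GENCODE vM1) found elsewhere in NCBIM37 on either strand. Promoter windows came from RefSeq (GRCm38.p6), with the first window listed for a symbol. Python 3.11.15, numpy 2.4.6, pandas 2.3.3, numba 0.67.0 and matplotlib 3.10.9 were used, and the recovery and spread were tested on simulated data. Alternatives were other expression limits, every library above the limit, rescaling without small RNA features, other abundance minimums, no scaling, a pseudocount, leaving out each library, and, chosen after seeing the data, features of at least 200 bases, GENCODE windows and members with little shared sequence.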

Additional observations from a re-analysis of the deposited data

How the results depend on the processing

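The results come from no test, and of 51 alternative values of 8 results, 38 stayed within the spread of the libraries or within 1.5 times the count given. With a limit of 5 TPM, 31 lineage genes were expressed in place of 68. Ribosomal protein genes held 23.2% of TPM in place of 23.1% after rescaling without microRNA and small nucleolar RNA features. The number of genes spanning over 1.5-fold was 181 with a mean of at least 1 TPM, 3 with at least 50 TPM, 1 among features of at least 200 bases, and between 9 and 14 without 1 of the libraries, in place of 19. Fewer libraries or genes are compared in these alternatives, other than that of 1 TPM, which adds genes of few reads. The median CpG ratio of expressed genes was 0.814 with a limit of 10 TPM, 0.767 with GENCODE vM1 windows and 0.778 with any of the libraries left out, in place of 0.779. That of silent genes was 0.147 for genes listed at 0, 0.196 with GENCODE vM1 windows and between 0.189 and 0.191 without 1 of the libraries, in place of 0.188. The cause of these CpG differences was not tested. No paired analysis was possible because the results come from no test and only 1 group was described. Genes below the floor of 3 reads cannot be told from absent ones, genes that share sequence with copies have uncertain levels, and the 3 libraries may not be separate cultures.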

Other observations

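Structural genes of the nucleus and cytoskeleton gave a further picture of these cells. Lmnb1, a B-type lamin, was at 477 ± 2.91 TPM, above Lmnb2 at 84.8 ± 1.81 TPM and the A-type lamin gene Lmna at 79.7 ± 1.07 TPM. Of cytoskeletal genes, Actb (beta-actin) was at 2255 ± 52.2 TPM, the actin-sequestering Tmsb4x at 2030.1 ± 38.1 TPM and the tubulin gene Tuba1b at 1785 ± 24.2 TPM, while the intermediate filament genes Vim and Krt8 lay far lower. Spp1 (osteopontin), a secreted glycoprotein, was at 857, 879.8 and 884 TPM in replicates 1 to 3, and L1td1, an RNA-binding protein derived from a LINE-1 element, at 766, 759 and 789 TPM.

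Tissue-specific paralogues of housekeeping genes were not all silent. Rpl39l, the testis paralogue of Rpl39, was at 30.001, 30.5 and 31.5 TPM against 3019, 3026 and 2729 TPM for Rpl39, and Cyct, the testis cytochrome c, at 12.3, 12.5 and 13.5 TPM against 70.8, 65.3 and 68.01 TPM for Cycs. Rpl22l1 at 1190.3 ± 28.7 TPM was above Rpl22 at 678 ± 11.3 TPM in every library. Eef1a2, the elongation factor of neurons and muscle, was at 0.569, 0.377 and 0.473 TPM. Among class I histone deacetylases, Hdac8 at 7.36 ± 0.513 TPM was below Hdac1 at 307 ± 5.96, Hdac2 at 211 ± 6.14 and Hdac3 at 87.5 ± 1.75 TPM.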
